A study of Mus musculus with 6 samples.

Results

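The genes described here are 7 transcription factor genes of the choice between granulocyte and monocyte: Cebpa, Cebpb, Cebpd, Cebpe and Cebpg of the C/EBP family, Spi1 and Gfi1. They were taken as every array probe whose RefSeq accession belongs to one of these genes, whatever its values. Each gene had 1 such probe with 1 spot, and all 7 were read well above background on all 6 arrays, so all 7 were among the 13247 genes tested, of 20263 genes matched with values on every array. The cells were Tot2, a mouse line of myeloid progenitors, and all groups share its origin in an Irf8 knockout animal. Retrovirus brought in MSCV-puro without a further gene (control), MSCV-IRF8FLAG (IRF8) or MSCV-KLF4FLAG (KLF4), the last pair coding for tagged transcription factors of the monocyte lineage, with 4 µg/ml polybrene at transduction. Cultures of every group held 5 ng/ml granulocyte-macrophage colony-stimulating factor, received 2 µg/ml puromycin 48 hr after transduction, and gave RNA on day 4. There were 2 arrays for each of 3 groups, numbered by the 2 experiments that the submitters call independent. Tot2 is a single line, the retroviral vector rather than the native gene drives the added factor, and p-values measure the spread between these cultures of it.

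C/EBP proteins bind DNA as dimers through a basic leucine zipper and can pair with each other, so the mix of members in a cell sets which dimers form. C/EBPα, the product of Cebpa, opens the granulocyte and monocyte programme in progenitors, C/EBPε carries granulocytes through their late granule stages, and C/EBPβ serves macrophages and granulocyte production under stress. PU.1, the ETS factor encoded by Spi1, is needed for both lineages and in monocytes binds DNA together with IRF8, and GFI1 is a zinc finger repressor that neutrophil formation requires. The levels of these factors relative to each other are a classical account of how a progenitor becomes a granulocyte or a monocyte.

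RefSeq promoters, each covering 250 bases before and 50 after a gene's start on the GRCm38.p6 build, were matched for 4 of the 7 genes: 1 each for Cebpa, Cebpb and Cebpg and 2 for Gfi1. Cebpd, Cebpe and Spi1 had no entry. The 3 windows below belong to Cebpa and Gfi1, which were lower in IRF8-labelled cells, and to Cebpb, which was higher. Capitals mark the motif matches found in these windows on either strand. The Cebpa window lies at chr7:35119043-35119342 on the + strand, the Cebpb window at chr2:167688665-167688964 on the + strand and the Gfi1 window at chr5:107725756-107726055 on the - strand.
Cebpa: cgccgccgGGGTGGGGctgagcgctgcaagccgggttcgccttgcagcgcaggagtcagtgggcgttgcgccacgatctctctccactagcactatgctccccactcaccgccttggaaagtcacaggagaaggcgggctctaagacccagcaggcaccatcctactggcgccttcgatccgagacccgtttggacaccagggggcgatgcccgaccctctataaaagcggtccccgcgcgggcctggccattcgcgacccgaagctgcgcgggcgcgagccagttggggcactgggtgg
Cebpb: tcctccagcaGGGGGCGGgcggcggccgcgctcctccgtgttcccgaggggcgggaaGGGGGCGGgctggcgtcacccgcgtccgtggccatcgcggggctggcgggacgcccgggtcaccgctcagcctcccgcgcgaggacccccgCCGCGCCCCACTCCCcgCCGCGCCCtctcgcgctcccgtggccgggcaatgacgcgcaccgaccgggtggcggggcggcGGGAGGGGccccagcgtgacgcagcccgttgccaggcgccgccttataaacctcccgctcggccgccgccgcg
Gfi1: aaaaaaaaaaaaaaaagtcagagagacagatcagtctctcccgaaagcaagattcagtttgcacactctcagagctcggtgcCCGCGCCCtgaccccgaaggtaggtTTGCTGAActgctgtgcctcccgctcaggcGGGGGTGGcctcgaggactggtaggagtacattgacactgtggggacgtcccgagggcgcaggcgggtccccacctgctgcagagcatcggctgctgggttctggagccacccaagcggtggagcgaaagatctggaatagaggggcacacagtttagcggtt
The letters searched were TTGCNNAA for C/EBP factors, GAGGAA for PU.1, AAATCA for GFI1 and CCNCNCCC for KLF factors, where N is any base, with GAAA and GAAA parted by 2 bases for IRF factors and GGAA and GAAA parted by 2 bases for an ETS-IRF composite. The Cebpa window held 1 match, the KLF letters GGGTGGGG from -242 to -235 of the start site. In the Cebpb window there were 6 KLF matches from -240 to -16, of which CCGCGCCC (-102 to -95) and CCACTCCC (-95 to -88) share 1 base. The Gfi1 window held the C/EBP letters TTGCTGAA from -143 to -136 and 2 KLF matches, CCGCGCCC from -168 to -161 and GGGGGTGG from -113 to -106. KLF letters occurred in 49.5% of 32851 mouse promoters of the same length and C/EBP letters in 10.8%. The PU.1 letters (28.3% of promoters), GFI1 letters (14.0%), IRF letters (3.4%) and ETS-IRF letters (2.7%) were not found in any of the 5 windows, and the second Gfi1 window and the Cebpg window held KLF letters only (1 and 2 matches). These matches describe the letters of the windows and do not show binding.

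Levels are given as log2 of the processed signal, an intensity, relative to the 75th percentile of the same array. Differences are on that log2 scale with the standard error (SE) of limma's fit, n = 2 arrays a group, and a gene was called at an adjusted p below 0.05 (Benjamini-Hochberg over the 13247 genes). Intensity at that percentile was 436 to 974, each array had 47.1% to 56.8% of its probes well above background, and 0 spots were saturated. The number of arrays limits the precision, since for 2 arrays against 2 the exact permutation p (two-sided) is 0.333 at its lowest. Irf8 signal read 0.49 and 0.64 in control, 2.94 and 3.05 in IRF8 and 2.18 and 2.16 in KLF4, and Klf4 signal -1.62 and -1.28, 4.46 and 4.61, and -1.56 and -1.33. Klf4 signal was thus not higher on the arrays labelled KLF4 (difference 0.00, limma adjusted p = 0.987), and the position of its probe on the transcript is not given in the sources used here. The groups are therefore called IRF8-labelled and KLF4-labelled, together the factor groups (control cells were transduced too, with the empty vector), and every direction below rests on the labels.

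In IRF8-labelled cells Gfi1, Cebpe and Cebpa signals were lower than in control by 6.86-fold, 5.58-fold and 2.31-fold, and Cebpb and Spi1 signals were higher by 1.66-fold and 1.61-fold. Cebpd and Cebpg were not called. KLF4-labelled cells had Cebpb 1.70-fold higher and Cebpe 1.58-fold lower than control, and no other of the 7 genes was called. Set directly against each other, IRF8-labelled cells were lower than KLF4-labelled cells in Gfi1, Cebpe and Cebpa by 6.12-fold, 3.54-fold and 1.95-fold and higher in Spi1 by 1.29-fold. The arrays read RNA of whole cultures, so fewer cells with a transcript and less of it per cell cannot be told apart.

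**Figure D1:**
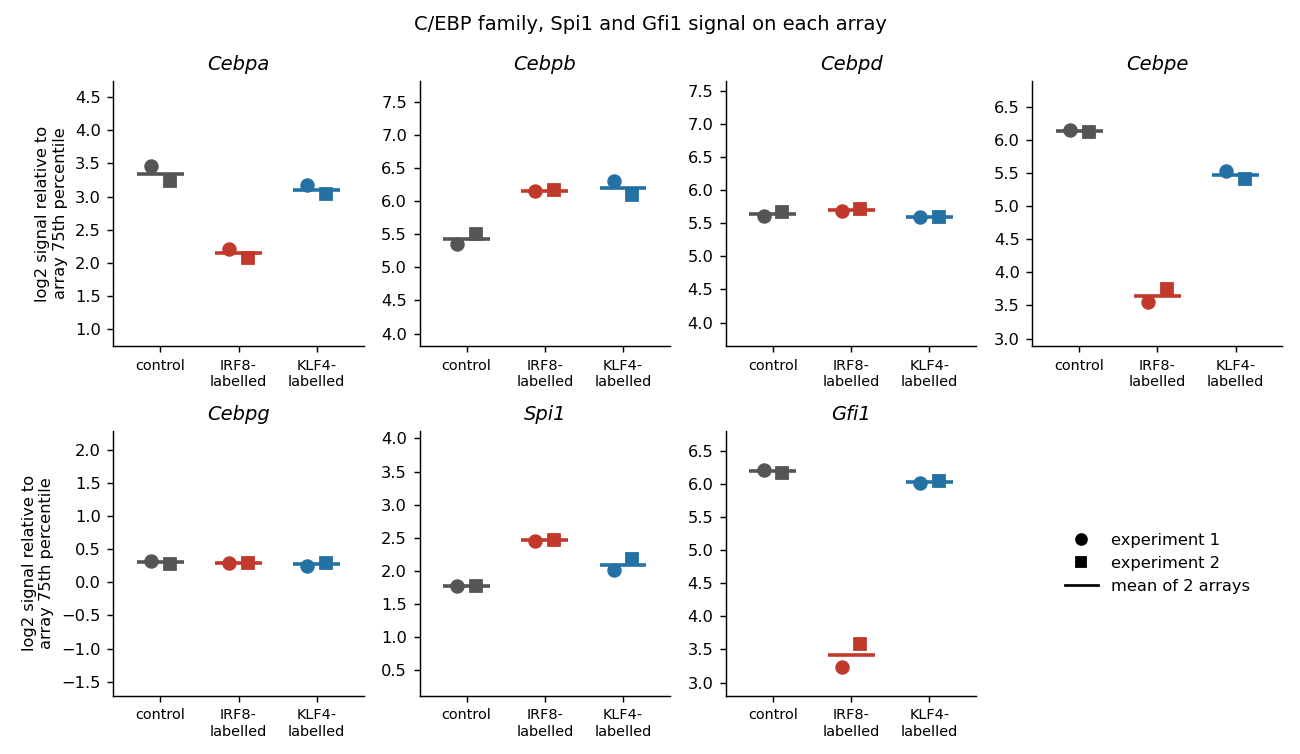
Log2 signal relative to the 75th percentile of the array (vertical axis) of each of the 7 genes on each of the 6 arrays, grouped as control, IRF8-labelled and KLF4-labelled cells; points are single arrays and bars the mean of 2. Gfi1 and Cebpe sit above 5 in control and KLF4-labelled cells and below 4 in IRF8-labelled cells, while Cebpd and Cebpg stay within a narrow band; heights of different genes come from different probes and cannot be ranked.

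Counted together, 5 of the 7 genes (71.4%) were called in IRF8-labelled cells against control, 2 higher and 3 lower. That share has to be read against all genes tested, of which 61.5% were called in this comparison (25.8% higher and 35.7% lower). Against control, KLF4-labelled cells had 2 of 7 called (28.6%), 1 in each direction, where 19.2% of all genes were called (10.4% higher, 8.85% lower). Between the factor groups 4 of 7 were called (57.1%), 1 higher and 3 lower in IRF8-labelled cells, where 50.5% of all genes were called (23.7% higher, 26.8% lower). None of these shares lies far from its background, so the counts say little about the genes as a set. The median difference of the 7 genes was -0.01, -0.05 and -0.04 in the 3 comparisons, and that of all genes -0.13, -0.16 and -0.01. Arrays of the groups did not overlap for 6, 6 and 5 of the 7 genes, beside 80.3%, 65.0% and 75.5% of all genes. Cebpg overlapped in each comparison and Cebpb overlapped between the factor groups. With scaling on spike-in controls the counts of called genes were 3, 0 and 3, and the 0 for KLF4-labelled cells had 1 gene at an unadjusted limma p below 0.05. That count was also 0 without a filter on dim probes (3 unadjusted) and without KLF4 replicate 1 or control replicate 1. Both comparisons with control share the control arrays.

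Where the size of the changes stood among all genes can be given by rank, over the 11665 genes read above background on all 6 arrays. In IRF8-labelled cells against control the change of Gfi1 was the 95th lowest and that of Cebpe the 134th lowest, while Cebpa stood at 1207 from the lowest. The rises of Cebpb and Spi1 stood at 1900 and 1977 from the highest. In KLF4-labelled cells Cebpb stood at 641 from the highest, Spi1 at 1455 from the highest and Cebpe at 349 from the lowest. Against KLF4-labelled cells, IRF8-labelled cells had Gfi1 as the 79th lowest, Cebpe as the 226th lowest and Cebpa at 1075 from the lowest. Gfi1 and Cebpe thus lay near the end of the range where IRF8-labelled arrays were compared, and Cebpb and Spi1 did not.

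**Figure D2:**
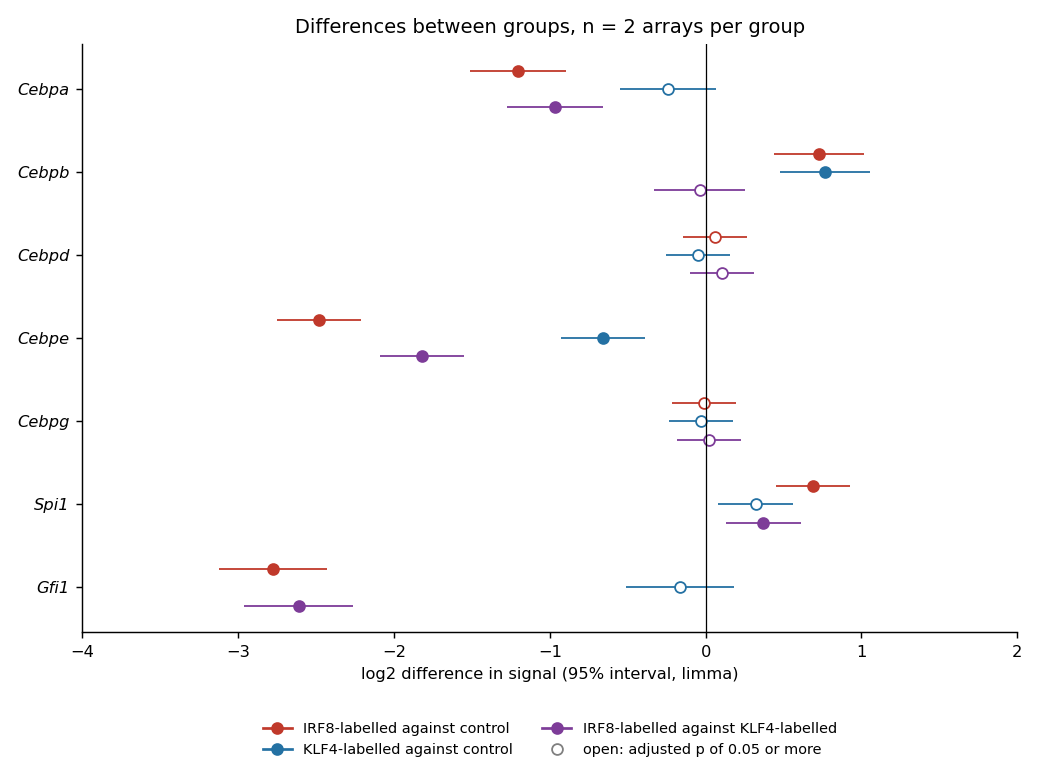
Difference in log2 signal (horizontal axis) between groups for each of the 7 genes, with limma's 95% interval as the bar and n = 2 arrays per group; filled points passed an adjusted p of 0.05 and open points did not. In IRF8-labelled cells against control Gfi1 and Cebpe lie at -2.78 and -2.48, Cebpa at -1.21, and Cebpb and Spi1 at 0.73 and 0.69, while every interval of Cebpd and Cebpg includes 0.

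Cebpe, whose product drives the late granulocyte stages and the genes of secondary granules (probe A_55_P2165839, NM_207131), read 6.14 and 6.11 in control, 3.55 and 3.74 in IRF8-labelled and 5.53 and 5.41 in KLF4-labelled cells. Its groups stood in 3 separate steps, with control highest, KLF4-labelled next and IRF8-labelled lowest. The fall in IRF8-labelled cells was -2.48 ± 0.11 (SE; 95% interval -2.75 to -2.21, limma adjusted p = 6.47e-05), with -2.59 and -2.37 in the 2 experiments. In KLF4-labelled cells it was -0.66 ± 0.11 (-0.93 to -0.39, limma adjusted p = 0.0167), with -0.62 and -0.70. This smaller fall missed the threshold with median scaling (adjusted p = 0.0673), with spike-in scaling (0.637), without a filter on dim probes (0.0741), and when any array of either group compared was left out (0.0661 to 0.107); over all alternatives the adjusted p ran from 0.00553 to 0.637. The difference between the factor groups was -1.82 ± 0.11 (-2.09 to -1.55, limma adjusted p = 3.11e-04), so the fall in IRF8-labelled cells was the larger of the pair.

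Gfi1 (A_55_P1977008, NM_010278), the repressor gene of neutrophil formation, read 6.22 and 6.17 in control, 3.24 and 3.59 in IRF8-labelled and 6.01 and 6.04 in KLF4-labelled cells. Only the IRF8-labelled arrays were low. Gfi1 fell by 2.78 ± 0.14 (95% interval -3.13 to -2.43, limma adjusted p = 9.59e-05) in IRF8-labelled cells against control, with -2.98 and -2.58 by experiment. In KLF4-labelled cells the difference was -0.17 ± 0.14 (-0.51 to 0.18, adjusted p = 0.411), an interval that holds no change as well as a fall or a small rise. IRF8-labelled cells were lower than KLF4-labelled cells by -2.61 ± 0.14 (-2.96 to -2.26, limma adjusted p = 2.50e-04).

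Cebpa, the gene of the C/EBP factor of early progenitors (A_52_P168567, NM_007678), read 3.46 and 3.23 in control, 2.21 and 2.08 in IRF8-labelled and 3.17 and 3.04 in KLF4-labelled cells. The IRF8-labelled arrays lay well under the other 4, and the KLF4-labelled arrays just under control. It fell by 1.21 ± 0.12 (95% interval -1.52 to -0.90, limma adjusted p = 7.94e-04) in IRF8-labelled cells, with -1.25 and -1.16 by experiment. KLF4-labelled cells differed from control by -0.24 ± 0.12 (-0.55 to 0.07, adjusted p = 0.209), which passed with the replicate number as a block (adjusted p = 0.0292) and under no other alternative. The factor groups differed by -0.96 ± 0.12 (-1.27 to -0.66, limma adjusted p = 0.00262). The falls of Cebpa, Cebpe and Gfi1 in IRF8-labelled cells, against control and against KLF4-labelled cells, passed in all 18 alternatives tried. Not all of these are separate checks: each gene had 1 probe, above background on all 6 arrays, so the choices of probe and of detection left its differences unchanged.

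Spi1, which encodes PU.1 (A_52_P498086, NM_011355), read 1.77 and 1.77 in control, 2.45 and 2.47 in IRF8-labelled and 2.01 and 2.17 in KLF4-labelled cells. The order was the reverse of that of Cebpe, with control lowest, and no array overlapped with another group. The rise in IRF8-labelled cells was 0.69 ± 0.09 (95% interval 0.45 to 0.93, limma adjusted p = 0.00218), with 0.68 and 0.71 by experiment; it did not pass with spike-in scaling (0.56, adjusted p = 0.236). KLF4-labelled cells differed from control by 0.32 ± 0.09 (0.08 to 0.56, adjusted p = 0.0713), which passed with the replicate block (0.0261), with quantile normalization (0.0390) and with limma's trend and robust settings (0.0472), in a range of 0.0261 to 0.947. Between the factor groups the difference was 0.37 ± 0.09 (0.13 to 0.61, limma adjusted p = 0.0245). This call did not pass with normexp (0.0705), median scaling (0.360, difference 0.21), spike-in scaling (0.741, difference 0.22), no filter on dim probes (0.0839), or without IRF8 replicate 1 (0.100), IRF8 replicate 2 (0.108) or KLF4 replicate 1 (0.114).

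Cebpb, the C/EBP gene of macrophages and of stress granulopoiesis (A_55_P2165869, NM_009883), read 5.36 and 5.50 in control, 6.15 and 6.17 in IRF8-labelled and 6.31 and 6.09 in KLF4-labelled cells. All 4 factor-group arrays lay above both control arrays, and the factor groups overlapped. The rise was 0.73 ± 0.11 in IRF8-labelled cells (95% interval 0.44 to 1.02, limma adjusted p = 0.00361), with 0.79 and 0.67 by experiment, and was not called with spike-in scaling (0.60, adjusted p = 0.193). It was 0.77 ± 0.11 in KLF4-labelled cells (0.48 to 1.06, limma adjusted p = 0.0132), with 0.95 and 0.59. The KLF4 call was lost with spike-in scaling (0.337), without a filter on dim probes (0.0598), without control replicate 1 (0.0648) and without KLF4 replicate 1 (0.0725), in a range of 0.00276 to 0.337. The factor groups differed by -0.04 ± 0.11 (-0.33 to 0.25, adjusted p = 0.799), an interval that leaves room for a small difference either way.

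Cebpd and Cebpg were the members with no call. Cebpd, the C/EBP gene induced in inflammation (A_51_P444447, NM_007679), read 5.61 and 5.67 in control, 5.68 and 5.72 in IRF8-labelled and 5.60 and 5.59 in KLF4-labelled cells. Its differences were 0.06 ± 0.08 (95% interval -0.15 to 0.26, limma adjusted p = 0.565), -0.05 ± 0.08 (-0.25 to 0.16, 0.683) and 0.11 ± 0.08 (-0.10 to 0.31, 0.327), with no settled sign: the first was -0.01 with median scaling and -0.07 with spike-ins, the second 0.05 with median scaling and 0.09 with quantile normalization, and the third -0.06 and -0.05 with median and spike-in scaling. Cebpg, whose product lacks an activation domain of its own and dimerises with other leucine zipper proteins (A_52_P438082, NM_009884), read 0.32 and 0.28, 0.30 and 0.29, and 0.25 and 0.30. The 6 arrays of Cebpg thus spanned less than 0.1. Its differences of -0.01 ± 0.08, -0.03 ± 0.08 and 0.02 ± 0.08 had intervals inside -0.23 to 0.22 (limma adjusted p = 0.928, 0.795 and 0.844), and their signs also changed with scaling. The local background around the Cebpg spot was marked as an outlier on 5 of the 6 arrays, though the spot itself was not.

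Pairs of these genes can be followed within an array, where the scaling of the array cancels. The log2 ratio of 2 probes has no meaning as a level, so each is given relative to the mean of the control arrays, and the control arrays lay up to 0.18 from that mean. Spi1 relative to Cebpa stood at 1.82 and 1.97 on the IRF8-labelled arrays, a mean of 3.72-fold, and at 0.41 and 0.71 on the KLF4-labelled arrays, a mean of 1.48-fold. The ratio of Spi1 to Gfi1 moved most of the 10 computed, to 3.63 and 3.31 (11.1-fold) in IRF8-labelled cells, and to 0.42 and 0.55 (1.40-fold) in KLF4-labelled cells. Both ratios were above control on all 4 factor-group arrays, further so on the IRF8-labelled pair.

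The ratio of Cebpb to Cebpa, the C/EBP of macrophages against that of early progenitors, reached 1.86 and 2.01 (3.82-fold) in IRF8-labelled cells and 1.05 and 0.97 (2.01-fold) in KLF4-labelled cells. That of Cebpb to Cebpe reached 3.30 and 3.12 (9.25-fold) and 1.48 and 1.38 (2.69-fold). In KLF4-labelled cells the ratio to Cebpe was thus the one that moved furthest of those given. Spi1 relative to Cebpe stood at 3.26 and 3.09 (9.01-fold) and at 0.84 and 1.12 (1.97-fold). Cebpb relative to Spi1 stayed at 0.04 and 0.04 in IRF8-labelled cells, within the control arrays' range, and read 0.64 and 0.25 in KLF4-labelled cells. Cebpe relative to Gfi1 went in opposite directions, with 0.38 and 0.22 in IRF8-labelled and -0.41 and -0.57 in KLF4-labelled cells, where Cebpe was lower and Gfi1 was not called. With 2 arrays a group no exact test of a ratio can pass the threshold, so these are descriptions.

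**Figure D3:**
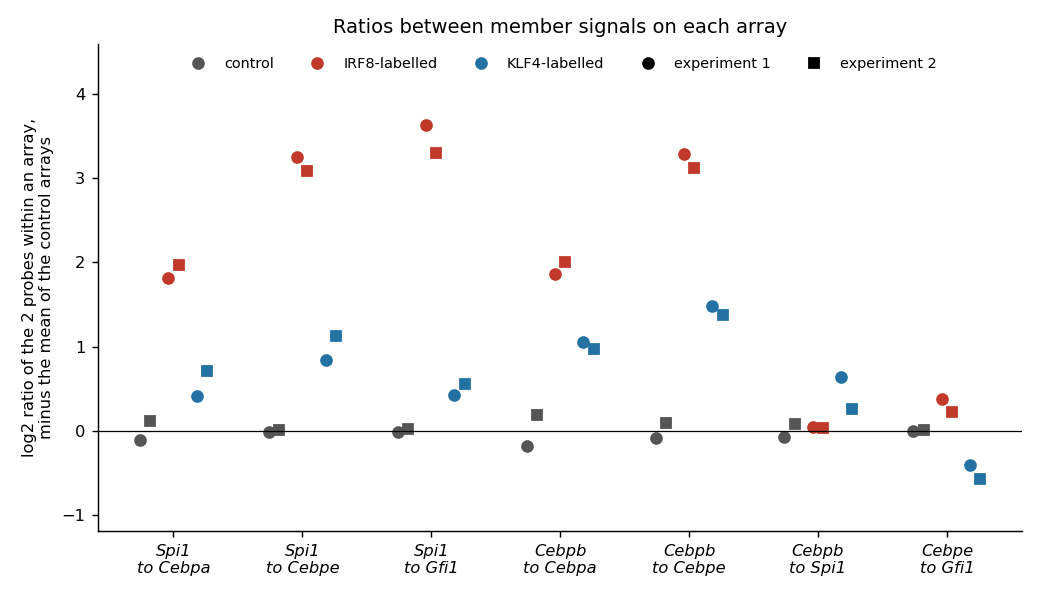
Log2 ratio of pairs of the 7 genes on each array, relative to the mean of the 2 control arrays (0 on the vertical axis), with 1 point per array and colours for control, IRF8-labelled and KLF4-labelled cells. The ratio of Spi1 to Gfi1 lies at 3.31 and 3.63 on the IRF8-labelled arrays and at 0.42 and 0.55 on the KLF4-labelled arrays, and Cebpe to Gfi1 is the ratio that lies on opposite sides of 0.

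For each gene the 2 genes with the most similar course over the 6 arrays were sought among 11232 named genes, by Pearson's r. These r values are descriptions; the 6 points form 3 groups, the search took the best of many, and high values arise from the group steps alone. Cebpe was followed most closely by Ppp1r8, the gene of a nuclear phosphatase regulator (r = 0.9997), and by Gca, the calcium-binding grancalcin of neutrophil granules (r = 0.9996), with Gca at -2.29 and -0.55 in IRF8-labelled and KLF4-labelled cells against control. Gfi1 was followed by Ube2t, a ubiquitin-conjugating enzyme gene (r = 0.999), and the sulfotransferase gene Chst13 (r = 0.999), whose differences were -2.75 and -0.21. Cebpa was followed by Sgip1 and Rabepk (r = 0.999 each), with Sgip1 at -1.83 and -0.31. Spi1 was followed by Zc3hav1, which encodes an antiviral zinc finger protein (r = 0.997; 0.69 and 0.33), and by H2-Q10 (r = 0.996), an MHC class I gene whose probe may read related genes. Cebpb was followed by Cpne5 (r = 0.997; 0.72 and 0.80) and Chmp5 (r = 0.991), a gene of endosomal sorting. Cebpd had Ier3ip1 (r = 0.997) and H2bfm (r = 0.995), and Cebpg, whose arrays hardly differed, Tbce (r = 0.886) and Dnmbp (r = 0.874).

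The surrounding pathway was read through 4 lists of other genes. The first holds partners and regulators of C/EBP proteins; 13 of its 14 genes were tested, all but Trib2. In IRF8-labelled cells against control 5 rose and 4 fell, beside 25.8% and 35.7% of all genes, with a median of 0.04 beside -0.13 for all genes. Batf3, a leucine zipper factor of dendritic cells, rose 58.6-fold (5.87 ± 0.19, limma adjusted p = 3.22e-05), Trib1, an adaptor that directs C/EBPα protein to degradation, 6.86-fold (2.78 ± 0.10, 4.01e-05), and the zipper genes Nfil3 and Ddit3 2.40-fold and 2.18-fold. Crebbp, the gene of a histone acetyltransferase, rose 2.12-fold. The falls were Atf5 by 1.93-fold, Cebpz by 1.90-fold, the TATA-binding protein gene Tbp by 1.76-fold and Atf4 by 1.54-fold (SE of these 7 up to 0.22, limma adjusted p up to 0.0245).

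In KLF4-labelled cells against control the same list had 2 higher, Batf3 (8.04-fold, adjusted p = 7.69e-04) and Trib1 (1.96-fold, 0.00371), and 2 lower, Ddit3 (1.44-fold, 0.0143) and Atf5 (1.40-fold, 0.0367), with a median of -0.15 beside -0.16. Of all genes, 10.4% were higher and 8.85% lower there. The split was 2 and 6 with the replicate block, 1 and 0 with spike-ins, and 2 and 0 with median scaling, with normexp, without the filter on dim probes and without any array of either group compared; quantile normalization gave 2 and 1. Between the factor groups IRF8-labelled cells had 6 higher and 2 lower, beside 23.7% and 26.8% of all genes, with a median of 0.20 beside -0.01. Batf3 was 7.29-fold, Trib1 3.50-fold, Ddit3 3.15-fold and Nfil3 2.47-fold higher, and Cebpz and Atf5 were 1.47-fold and 1.38-fold lower (SE up to 0.19, limma adjusted p up to 0.0172). The counts were 4 and 0 with spike-in scaling.

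The second list holds relatives and partners of PU.1 and GFI1, with 23 of 25 genes tested and Spib and Gata2 left out by the filter on dim probes. In IRF8-labelled cells 12 rose and 6 fell, beside 25.8% and 35.7% of all genes, with a median of 0.85 beside -0.13. The list includes the transduced genes Irf8 and Klf4, and both are among the 12 (5.39-fold and 63.2-fold). Irf8 is the gene that the IRF8 vector carries, so its rise is no separate result. It is also counted as higher below where IRF8-labelled cells are set against KLF4-labelled cells (1.78-fold). The early response genes Egr1 and Egr2, whose products work against GFI1 in macrophage formation, rose 133-fold and 63.5-fold, Egr1 with 1 of 2 control arrays above background. Gfi1b, the close relative of Gfi1 from the erythroid lineage, rose at least 18.0-fold, where control is set at the lowest signal above background. Among the genes that fell, the ETS genes Ets1 and Fli1 changed by -3.58 and -1.03 on the log2 scale, the progenitor factor gene Myb was 6.32-fold lower, and the partners of GFI1 in repression Hdac2, Hdac1 and Kdm1a fell 2.01-fold, 1.57-fold and 1.27-fold (SE of the genes named up to 0.45, limma adjusted p up to 0.0255).

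In KLF4-labelled cells 7 of the 23 rose and 4 fell, beside 10.4% and 8.85% of all genes, with a median of 0.00 beside -0.16. Gfi1b rose at least 40.9-fold (limma adjusted p = 7.23e-04) while Gfi1 itself was not called. Egr1 rose 7.79-fold, again with 1 control array above background, Irf8 3.04-fold and Egr2 2.94-fold (adjusted p up to 0.00940), and the 4 lower genes were Id2 by 1.52-fold, Runx1 by 1.51-fold, Myb by 1.40-fold and Fli1 by 1.30-fold (adjusted p up to 0.0342). The Irf8 probe was above background on all 6 arrays, control included, in cells of Irf8 knockout origin. Whether the signal comes from a working Irf8 transcript was not tested. The replicate block gave 8 higher and 7 lower. With median or spike-in scaling the split was 6 and 0, and it was 5 and 1 with normexp and 5 and 0 without the filter on dim probes. Leaving out an array of any group gave 4 to 7 called, with at most 1 lower, and the fewest without KLF4 replicate 2. IRF8-labelled against KLF4-labelled cells had 9 higher and 6 lower (23.7% and 26.8% of all genes), with a median of 0.17 beside -0.01: Klf4 63.0-fold, Egr2 21.6-fold and Egr1 17.0-fold among those higher, and Ets1 8.26-fold, Myb 4.52-fold, Fli1 1.57-fold, Hdac2 1.49-fold, Hdac1 1.31-fold and Ets2 1.26-fold lower (adjusted p up to 0.0264). The counts were 6 and 3 with spike-ins. Gfi1b differed between them by -1.19 ± 0.45 (adjusted p = 0.0833).

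**Figure D4:**
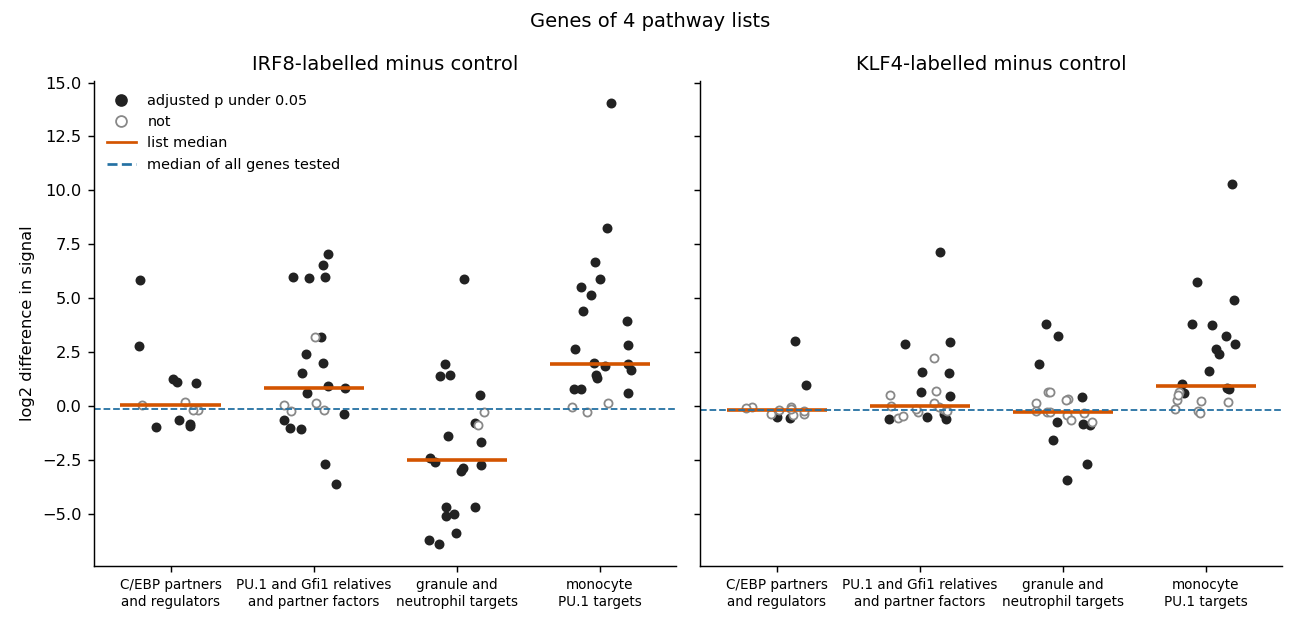
Difference in log2 signal against control of each tested gene of the 4 lists, in IRF8-labelled and KLF4-labelled cells, 1 point per gene, filled where the adjusted p was below 0.05, with the list's median as a bar and the median of all genes tested as a dashed line. The granule list has a median of -2.50 in IRF8-labelled and -0.25 in KLF4-labelled cells, and the monocyte list of PU.1 targets 1.98 and 0.93; points against a group below background are fitted values, not bounds.

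The third list holds granule and neutrophil genes known as targets of C/EBP factors or GFI1, of which 22 of 24 were tested, without Bpi and Mmp8. In IRF8-labelled cells 15 fell and 5 rose, beside 35.7% and 25.8% of all genes, with a median of -2.50 (-2.06 with 3 genes at their bound) beside -0.13. Those 3, Cxcr2, Padi4 and Mmp9, had 0 IRF8-labelled arrays above background and passed the filter through groups where they are higher. The furthest falls were those of Ltf (lactoferrin) by 82.5-fold, Ngp by 73.9-fold, Camp (cathelicidin) by 58.6-fold and Fcnb (ficolin B) by 33.9-fold (SE up to 0.37, limma adjusted p up to 1.54e-04). Among those that rose were Lyz2 (lysozyme, 59.1-fold), the integrin gene Itgam (2.76-fold) and the NADPH oxidase genes Cybb (3.87-fold) and Ncf4 (1.43-fold; adjusted p of these up to 0.00597), genes that monocytes use too. The remaining pair, named after its values were seen, was Mpo (-0.87, adjusted p = 0.0898, 0.00369 with the replicate block) and Csf3r (-0.28, 0.178, and 0.0349 with the block).

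In KLF4-labelled cells 6 of these 22 genes fell and 4 rose, beside 8.85% and 10.4% of all genes, with a median of -0.25 beside -0.16. Fcnb fell 10.8-fold, Ltf 6.36-fold, the chemokine receptor gene Cxcr2 2.91-fold, Camp 1.81-fold, S100a8 1.79-fold and Prtn3 1.68-fold, and Lyz2 rose 14.2-fold, Cybb 9.56-fold, Mmp9 3.86-fold (1 control array above background) and Ncf4 1.33-fold (limma adjusted p up to 0.0424). The block gave 10 lower and 7 higher, spike-ins and no filter on dim probes gave 3 and 3, and single arrays mattered: 2 lower and 3 higher without control replicate 1, 3 and 3 without KLF4 replicate 1 and 1 and 3 without KLF4 replicate 2. Against KLF4-labelled cells, IRF8-labelled cells had 16 lower and 3 higher (26.8% and 23.7% of all genes), with a median of -1.74 beside -0.01. Ngp was 55.2-fold, Camp 32.5-fold, Padi4 at least 15.8-fold and Mmp9 at least 8.09-fold lower, and Lyz2 and Itgam were 4.16-fold and 1.77-fold higher (adjusted p up to 0.0254). Spike-in scaling left 16 lower and 1 higher.

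The fourth list holds genes known as PU.1 targets in monocytes, of which 22 of 23 were tested and Cd68 was not matched. It shares Itgam, Cybb, Lyz2 and Csf3r with the granule list. In IRF8-labelled cells 19 rose and 0 fell, beside 25.8% and 35.7% of all genes, with a median of 1.98 beside -0.13. Ctss, Msr1 and Il1b had 0 control arrays above background and passed the filter through the factor groups. They are counted as higher in both comparisons with control, where they had little room to be lower. The largest rises in the list were those of the protease gene Ctss (at least 8051-fold), of Msr1 (at least 139-fold) and Mrc1 (101-fold), both of them scavenging receptors of macrophages, and of Lyz2 (59.1-fold) (limma adjusted p up to 2.10e-05). KLF4-labelled cells had 14 higher and 0 lower (10.4% and 8.85% of all genes), with a median of 0.93 beside -0.16: Ctss at least 604-fold, Il1b at least 14.4-fold, Lyz2 14.2-fold and Msr1 at least 14.0-fold (adjusted p up to 3.48e-04). The block gave 17 and 1 there. Between the factor groups IRF8-labelled cells had 15 higher and 2 lower, beside 23.7% and 26.8% of all genes, with a median of 0.72 beside -0.01: Fcgr1 29.9-fold, Mrc1 19.2-fold, Ctss 13.3-fold and Msr1 9.90-fold higher, and Il1b 3.55-fold and Cybb 2.47-fold lower (adjusted p up to 0.0299). The counts were 9 and 2 with spike-ins and 10 and 1 without KLF4 replicate 2. The 0 lower in each comparison with control was 0 under every scaling tried. With the replicate block it was not, since IRF8-labelled cells against control then had 19 higher and 1 lower, Csf3r.

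The genes next to the 7 on the chromosome, which were added after values had been seen, give a view of how local the changes were. In the annotation Cebpg and Cebpa lie on chromosome 7 with 1 gene between them, yet Cebpa fell and Cebpg differed by -0.01. Of 13 neighbours 10 were tested, with 6 called higher and 2 called lower for IRF8 against control, and 4 and 0 for KLF4, beside 61.5% and 19.2% called among all genes. Mybpc3, which follows Spi1, was higher by 3.42 and 1.56 on the log2 scale, and Tmem189 and Ptpn1, on either side of Cebpb, exceeded control by 4.18-fold and 2.68-fold for IRF8 and by 1.50-fold and 2.57-fold for KLF4 (limma adjusted p up to 0.0310). Slc7a8, which follows Cebpe, moved the other way from it, 5.49-fold and 3.03-fold higher (adjusted p up to 0.00197). Beside Gfi1, Rpap2 was 2.06-fold lower in IRF8-labelled cells (adjusted p = 7.34e-04) and Evi5 was not called.

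Markers of other cell types were read beside these results as the log2 of their summed signal. Of 7 progenitor markers 5 were above background on all arrays, Kit on 0 and Cd34 on the IRF8-labelled arrays only, and their sum went from 11.12 and 10.67 in control to 9.55 and 9.23 in IRF8-labelled cells, with 10.85 and 10.21 in KLF4-labelled cells. The 5 monocyte markers matched went from 3.51 and 3.50 to 7.67 and 7.71 and to 6.02 and 6.01. These 5 genes are also in the list of PU.1 targets, and the progenitor markers Mpo, Elane, Prtn3 and Ctsg in the granule list and Myb in the second list, so they are not separate evidence. Of 8 fibroblast or packaging cell markers Pdgfra, Pdgfrb, Dcn and Lum were above background on 0 arrays; their sum was -1.96 and -1.79, -1.87 and -2.33, and 1.11 and 1.18, and Thy1 alone read 0.95 and 1.09 in KLF4-labelled cells against -3.68 and -3.14 in control. Of 7 T, B and erythroid markers matched, 4 were above background on 0 arrays, Cd3g and Ms4a1 among them, and Cd3e on 6, with sums of 0.57 and 0.02, 1.35 and 0.71, and 0.65 and -0.23. The part of these cell type markers in the differences above was not tested.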

How the data were processed

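Total RNA was labelled with Cy3 and read on 6 arrays with a single dye. Per the file headers, the values of the scanner files used here are intensity from Agilent Feature Extraction 10.7.3.1, background-subtracted within the array and not normalized between arrays. The deposited value table, also intensity, served as an alternative. Its median ratio to the scanner values ran from 0.642 to 1.39 by array, lower where the 75th percentile was higher. That table was thus already scaled between arrays, much as in the main fit, and is a weak alternative. Control spots and 75 probes with flagged spots were left out. Of 55681 probes 28390 carried a RefSeq-form accession and 26762 were matched to a gene (GRCm38.p6, names only); for the 5396 genes with several probes the brightest was used. The 13247 genes tested were above background on the pair of arrays of some group. Log2 signal minus the array's 75th percentile entered 1 limma fit (limma 3.58.1, R 4.3.3; 3 groups, 3 residual degrees of freedom, two-sided). The fit was also run on simulated arrays with independent noise and few changed genes. That setting differs from these arrays, so its outcome says little about the calls here. The genes, lists and tests were chosen with earlier results of these data known. Named genes are the 7, Irf8 and Klf4, up to 4 largest changes past the threshold per list and comparison, list members moving against the majority, and the 2 most similar genes per member; any other gene was named after its values were seen, and a few that the rule would name are not reported here but stay in every count. Where a group had 0 arrays above background, folds are bounds, the bright group's mean against the higher of that array's lowest signal above background and the probe's own. The replicate number follows experiment, slide and scan, and deviations of same-numbered arrays correlated at r = 0.282, 0.321 and 0.391 across genes, which pairs the numbers, and a replicate block was an alternative. The normexp alternative (offset 50) used median foreground and background signals, since the scanner output held no mean foreground. Spike-in scaling used 8 probes.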

Additional observations from a re-analysis of the deposited data

How the results depend on the processing

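The 7 genes in 3 comparisons were recomputed under 18 alternatives, 378 values in all: 354 kept their side of the threshold (uncalled values among them, such as those of Cebpd and Cebpg, could change sign), 20 lost the call, 4 gained it and 0 called values turned sign. The 378 values are not independent. Choices of probe and of detection left the differences of these genes unchanged. Leaving out an array of the group not compared gave the same fit as the 2 groups alone. Spike-in scaling cost most (5 of 21), and it raised the SE of each gene. Genes called of the 7 were 5 to 5 with an array left out and 3 with spike-ins (IRF8-labelled against control), and 3 to 4 with an array left out (IRF8-labelled against KLF4-labelled). For KLF4-labelled cells against control they were 1 with median scaling, 0 with spike-ins (1 at an unadjusted limma p below 0.05), 0 without the filter on dim probes (3 unadjusted), 4 with the replicate block and 0 to 2 with an array left out.

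Over all genes, calls in IRF8-labelled cells against control went from 8146 to 4612 with spike-ins and 6708 to 7717 with an array left out; in IRF8-labelled against KLF4-labelled cells from 6695 to 2671 with spike-ins and 4656 to 6485. In KLF4-labelled cells against control, 2544 calls became 1052 with normexp, 1458 with median scaling, 865 with spike-ins, 974 without the filter, 1497 in a fit of only these 2 groups, 881 to 1497 with an array left out, and 6744 with the replicate block, where the number pairs the experiments. Of these calls 1372 were higher and 1172 lower, and 1259 and 199 with median scaling, 1563 and 768 with quantile normalization, and 774 and 91 with spike-ins; between the factor groups 3141 and 3554 became 2072 and 3851 with median scaling. The median of all genes moved with scaling from -0.13 to -0.26 (spike-ins) in the first comparison, and between the factor groups from -0.01 to -0.17 (median scaling) and -0.16 (spike-ins). The block changed no call of the 7 genes other than those of Cebpa and Spi1 in KLF4-labelled cells. The cause of these shifts was not tested.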
